A study of Mus musculus with 24 samples.

Results

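CC chemokines are small secreted proteins that draw leukocytes out of the blood and through tissue, and they are named for a pair of adjacent cysteines near the start of the mature protein. They act through CC chemokine receptors on leukocytes, while atypical chemokine receptors bind them without the usual G protein signal. In the choroid, the vascular and pigmented layer beneath the retina, laser burns break the membrane under the pigment epithelium, and monocytes, macrophages and new vessels then enter the lesion. The 10 CC chemokine genes described here (Ccl2, Ccl3, Ccl4, Ccl5, Ccl6, Ccl7, Ccl8, Ccl9, Ccl11 and Ccl12) were taken by name from a table of 56065 genes. Each of the 10 was above 0 in all 24 libraries and passed the filter on low values in every comparison.

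The 24 choroid libraries came from mice on a C57BL/6J background, both sexes, 6 to 8 weeks old unless stated otherwise by the study. The groups were wild type without laser (n = 4, libraries 21, 22, 26 and 27), wild type with laser (n = 9, libraries 1, 2, 3, 11, 12, 13, 16, 17 and 19), Ceacam1-/- without laser (n = 4, libraries 23, 24, 25 and 28) and Ceacam1-/- with laser (n = 7, libraries 4, 5, 6, 7, 14, 15 and 18). Ceacam1-/- mice lack exons 1 and 2 of Ceacam1, a cell adhesion receptor of endothelial and immune cells, in all tissues, and wild type littermates were the controls. Laser mice received 6 spots per eye to start choroidal neovascularization. The time between laser and dissection, the sex behind each library and any batch are not given for the libraries. Values are normalized counts, which are estimated reads of a gene divided by factors for library size and transcript length, and they summed to between 23704346 and 35094410 per library. The libraries without laser came from as many mice, while for the laser libraries the sources used here do not say whether each came from its own mouse, so p-values measure the spread between libraries.

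Ceacam1 was examined first, as a check of the labels. The normalized counts of Ceacam1 without laser were 958, 5027, 1242 and 4596 in wild type and 405, 505, 508 and 1171 in Ceacam1-/- libraries. With laser they were 999, 996, 914, 919, 1776, 774, 996, 1084 and 8367 in wild type and 308, 420, 438, 335, 140, 905 and 67.8 in Ceacam1-/- libraries. Ceacam1 was thus mostly lower in Ceacam1-/- libraries, but the genotypes overlapped, since library 28 exceeded wild type library 21 without laser and library 15 exceeded wild type library 13 with laser. The values cover the whole gene on chromosome 7, including exons outside the deletion, so they check the labels only in part.

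The dissected tissue also held RNA of neighbouring tissues in unequal amounts. Endothelial markers, with Plvap as the most abundant, RPE markers, with Rgr or Ttr, and fibroblast markers, with Col1a1 or Dcn, were all above 0. The summed normalized count of 8 photoreceptor markers ranged from 6847 to 1001690. In 5 libraries it was at least 534528, against at most 255254 in the other 19. These retina-rich libraries were 21 (wild type without laser), 23 (Ceacam1-/- without laser) and 14, 15 and 18 (Ceacam1-/- with laser), so none was a wild type laser library. Most CC chemokines were low in them. Library 21 was the lowest of the 4 libraries of its group in 8 of the 10 genes and library 23 in 7, with Ccl4 among the exceptions in library 23. In the Ceacam1-/- laser group, 9 of the 10 genes had all 3 retina-rich libraries below the other 4, and the summed chemokines were 2599 to 3487 against 6227 to 8769 normalized counts. The counts of the 10 genes called are therefore also given without these 5 libraries, a split chosen after seeing the data. So are the member values that changed a call, a direction or a fold by over 1.5 times. For Ccl7 and Ccl12 between the genotypes with laser, a range over the alternatives is given instead. Receptors, other chemokines, marker lists and levels per kb are given with all libraries only, and the part of the retina-rich libraries in them was not tested. Acta1, the actin of skeletal muscle, and the lens crystallin Cryaa were also present, and summed muscle markers had a median of 314539 with laser against 454314 without in wild type libraries, and of 100388 against 531503 in Ceacam1-/- libraries. All 8 muscle markers had log2 differences below 0 in both laser comparisons, and none passed the test. The part of muscle RNA in the results was not tested.

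All 10 genes lie on chromosome 11 in GRCm39, in 2 groups of neighbours. The monocyte chemoattractant and eotaxin genes Ccl2, Ccl7, Ccl11, Ccl12 and Ccl8 span 81.2 kb (chr11:81926397-82007625), all on the plus strand. After a gap of 1.41 Mb, Ccl5, Ccl9, Ccl6, Ccl3 and Ccl4 span 138.9 kb (chr11:83416602-83555509), with Ccl4 on the plus strand and the others on the minus strand. The genes of the first group share transcripts with no other gene at 95% identity over 50 bases. Of the second group, 276 of the 776 bases of Ccl3 (35.6%) also belong to the antisense RNA Gm53692, which reached at most 77.3 normalized counts, and Ccl6 and Ccl9 overlap the antisense gene E230016K23Rik, which reached at most 31.2. Of Ccl9, 172 bases are shared with other transcripts, and Ccl5 overlaps the antisense gene Gm73713. The sources used here do not state strand in the counting, so reads of overlapping antisense partners cannot be told apart.

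Promoter sequence is shown for Ccl2 and Ccl7, neighbours whose values followed each other most closely among the 45 pairs of these genes, and for Ccl9 and Ccl5, the genes with a match to the NF-kB consensus. Each line gives the 150 bases before the start of the canonical transcript, 5′ to 3′ on the strand of the gene, with motif matches in capitals. No exon of the gene itself lies in these windows, while the Ccl5 window overlaps an exon of Gm73713.
Ccl2 (chr11:81926247-81926396, plus strand): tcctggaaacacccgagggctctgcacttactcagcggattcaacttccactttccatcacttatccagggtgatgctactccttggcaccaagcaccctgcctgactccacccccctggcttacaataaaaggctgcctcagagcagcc
Ccl7 (chr11:81936382-81936531, plus strand): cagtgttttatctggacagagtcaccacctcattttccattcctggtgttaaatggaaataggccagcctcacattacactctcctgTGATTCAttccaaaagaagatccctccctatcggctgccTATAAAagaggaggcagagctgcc
Ccl9 (chr11:83469468-83469617, minus strand): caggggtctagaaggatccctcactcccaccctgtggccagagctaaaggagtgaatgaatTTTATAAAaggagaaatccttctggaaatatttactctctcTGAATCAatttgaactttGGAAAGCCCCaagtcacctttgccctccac
Ccl5 (chr11:83421346-83421495, minus strand): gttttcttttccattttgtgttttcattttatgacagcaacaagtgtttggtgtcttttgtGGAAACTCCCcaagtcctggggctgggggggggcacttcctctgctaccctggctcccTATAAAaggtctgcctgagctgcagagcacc

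The motifs were sought on both strands in 250 bases before the start. The TATA box TATAAA was found in Ccl5, Ccl7, Ccl8 and Ccl9 (4 of 10), against 11.9% of 21770 promoters of protein-coding genes. In Ccl5, Ccl7 and Ccl8 it ended 26, 19 and 23 bases before the start, whereas in Ccl9 2 overlapping matches lay from 89 to 82 bases before it and 1 more from 219 to 214 bases before it. The AP-1 motif TGANTCA was found in Ccl7 and Ccl9 (6.17% of promoters) and the NF-kB consensus in Ccl5 and Ccl9 (7.62%). The interferon-stimulated response element, a pair of GAAA runs 2 bases apart, was found in none of the 10 and in 3.32% of promoters. The Ccl2 window held none of these letters. A match is a description of these windows and not a binding site.

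The main question put to these genes was whether their RNA differed between choroids with and without laser, in each genotype. With laser, 8 of the 10 CC chemokines rose in wild type and the same 8 rose in Ceacam1-/- mice (adjusted p under 0.05, limma with Benjamini-Hochberg adjustment over 19950 genes). Of all genes tested, 4.23% rose in wild type and 2.07% in Ceacam1-/- mice. The 10 genes had a median log2 difference of 2.21 and 2.19 in the 2 genotypes, against -0.10 and 0.02 for all genes. Ccl2 and Ccl7, attractants of monocytes, had log2 differences from 2.56 to 3.13. Ccl5 and Ccl11, which attract T cells and eosinophils, did not pass the threshold in either genotype. The laser groups lay wholly above the groups without laser for 6 genes in wild type and 7 in Ceacam1-/- mice, where 4.5% and 1.17% of all genes did so. In whole tissue, more cells of a type and more RNA per cell cannot be told apart. Without the 5 retina-rich libraries, 8 genes rose in wild type and all 10 in Ceacam1-/- mice, where 5.76% and 8.66% of 19596 genes rose. Ccl12 was the least firm call in wild type: it was lost in 11 of the 13 fits that each left out 1 library. With only the 11 Ceacam1-/- libraries in the fit, 2 of the 10 genes rose (Ccl2 and Ccl7), where 0.177% of all genes rose, so calls were lost across the table. Without library 25, 5 of the 10 rose, the calls of Ccl4, Ccl8 and Ccl12 being lost, where 0.667% of all genes rose. Over the 11 fits that each left out 1 Ceacam1-/- library, the call of Ccl12 was lost in 3 (without libraries 5, 24 and 25), that of Ccl8 in 2 (without libraries 7 and 25) and that of Ccl4 in 1.

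**Figure D1:**
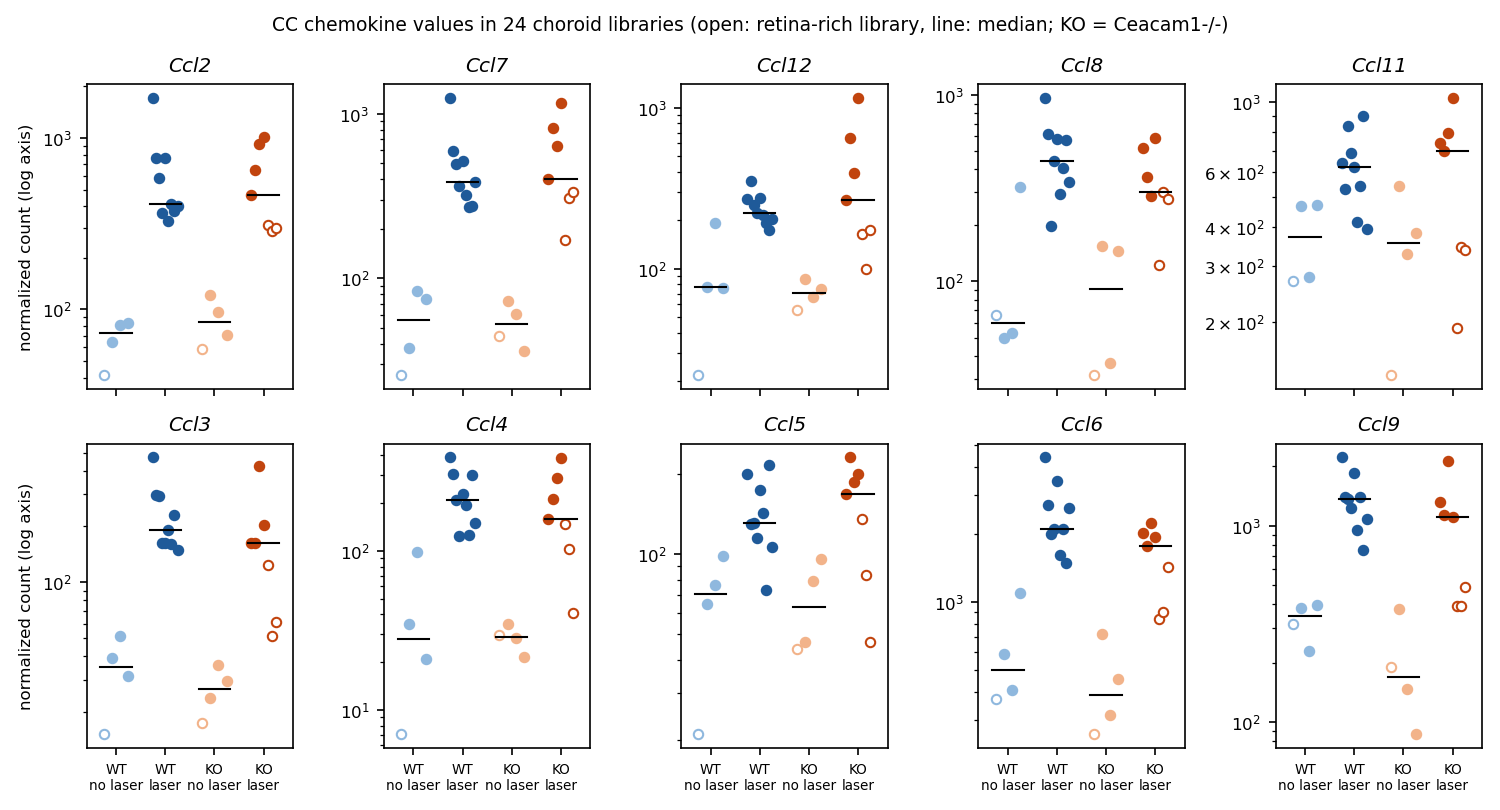
Normalized counts (log axis) of the 10 CC chemokines in each of the 24 libraries, by genotype and laser (WT, wild type; KO, Ceacam1-/-), with open points for the 5 retina-rich libraries and a line at the median of each group. The laser points of Ccl2 and Ccl7 lie above all points without laser, while those of Ccl5 and Ccl11 overlap them.

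Ccl2 and Ccl7, neighbours in the first group, had the largest laser differences of the 10 in the fit of all 24 libraries. The order was not firm: in wild type Ccl4 exceeded Ccl2 or Ccl7 with array weights (libraries that fit less well count less), with a covariate for Y-linked expression and without library 22 or 26, and in Ceacam1-/- mice it exceeded Ccl2 with array weights, without library 18 or 23 and without the retina-rich libraries. Ccl9, at 3.01, also exceeded Ccl2 in Ceacam1-/- mice without the retina-rich libraries. Ccl2, the main ligand of Ccr2, had 41.2, 64.6, 81.4 and 83.3 normalized counts in the wild type libraries without laser and from 328 to 1702 with laser (median 411). The Ceacam1-/- libraries had 58.4, 121, 97.0 and 71.1 normalized counts of Ccl2 without laser and from 286 to 1012 with laser (median 464). The groups did not overlap in either genotype, and library 1 stood highest. The log2 difference of Ccl2 was 3.05 ± 0.40 (SE, adjusted p = 4.86e-05, limma) in wild type and 2.56 ± 0.42 (SE, adjusted p = 0.00128) in Ceacam1-/- mice. Ccl7, also a ligand of Ccr2, had 25.7, 37.7, 84.2 and 74.6 normalized counts without and from 272 to 1237 (median 383) with laser in wild type. Ccl7 counted 44.4, 72.9, 60.6 and 36.2 in Ceacam1-/- mice without and from 171 to 1157 (median 402) with laser. Again no laser library of Ccl7 fell within the range without laser. Ccl7 had a log2 difference of 3.12 ± 0.44 (SE, adjusted p = 9.99e-05, limma) in wild type and 3.13 ± 0.46 (SE, adjusted p = 0.000387) in Ceacam1-/- mice.

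Ccl12 is a further ligand of Ccr2 in the mouse, and Ccl8 is made by resident macrophages. Ccl12 had 21.7, 77.3, 192 and 75.8 normalized counts in wild type without laser and from 174 to 348 (median 222) with laser, so that library 26 lay within the laser range. The Ceacam1-/- values of Ccl12 were 55.4, 85.7, 67.0 and 74.6 without and from 99.4 to 1141 (median 266) with laser, with no overlap. Libraries 5, 6 and 7, at 650, 390 and 1141, were above every wild type library. The log2 difference of Ccl12 was 1.71 ± 0.49 (SE, adjusted p = 0.0439, limma) in wild type and 2.09 ± 0.51 (SE, adjusted p = 0.0253) in Ceacam1-/- mice, where it was 2.79 without the retina-rich libraries and 2.74 with array weights. Ccl8 had 66.4, 49.9, 53.1 and 321 normalized counts in wild type without laser and from 198 to 959 (median 442) with laser. Ccl8 counted 31.3, 155, 36.4 and 145 in Ceacam1-/- mice without and from 122 to 585 (median 300.4) with laser. Single libraries caused both overlaps of Ccl8, library 27 in wild type and library 14 in Ceacam1-/- mice. Ccl8 had a log2 difference of 2.35 ± 0.51 (SE, adjusted p = 0.00703, limma) in wild type, or 2.97 without library 27, and 2.13 ± 0.53 (SE, adjusted p = 0.0279) in Ceacam1-/- mice. With libraries weighted by their quality, Ccl8 no longer passed in wild type (1.09, adjusted p = 0.0600 from limma).

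Ccl11, or eotaxin, the ligand of Ccr3 on eosinophils, was the only one of these 5 neighbours that did not pass. Its normalized counts were 269, 467, 277 and 469 in wild type without laser and from 394 to 901 (median 619) with laser. Ccl11 counted 135, 542, 328 and 382 in Ceacam1-/- mice without and from 191 to 1027 (median 700.1) with laser. The groups overlapped in both genotypes, and the 3 retina-rich laser libraries, at 191, 347 and 339, lay within the range without laser. The log2 difference of Ccl11 was 0.74 ± 0.38 (SE, adjusted p = 0.277, limma) in wild type, with a 95% interval from -0.04 to 1.52, and 0.73 ± 0.39 (SE, adjusted p = 0.308) in Ceacam1-/- mice. Without the retina-rich libraries it was 0.98 in Ceacam1-/- mice (adjusted p = 0.0232, limma) and 0.60 in wild type (adjusted p = 0.145).

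**Figure D2:**
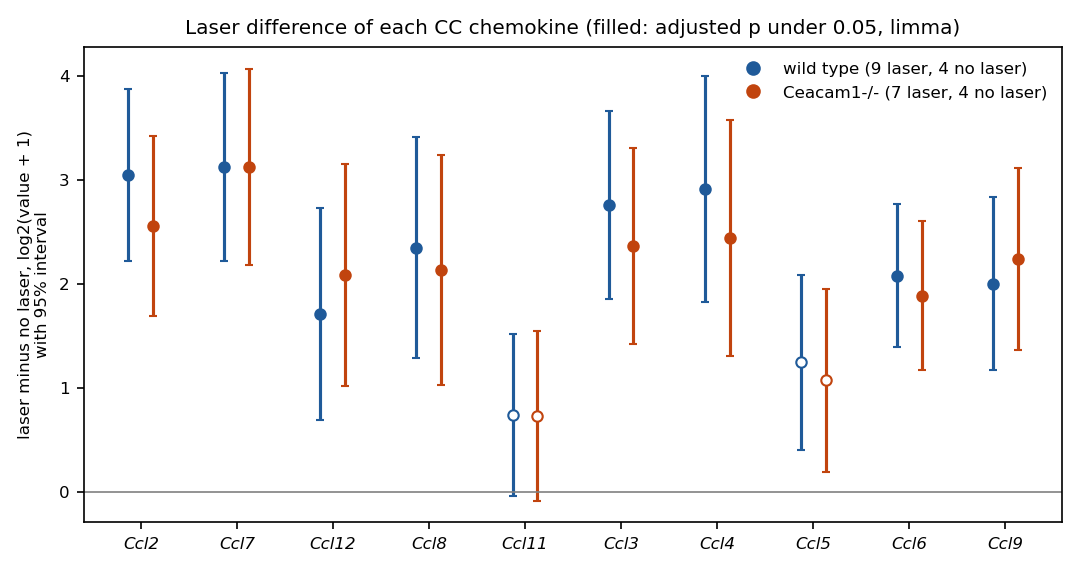
Laser minus no laser difference on the log2(value + 1) scale for each CC chemokine, with 95% intervals, in wild type (blue) and Ceacam1-/- mice (orange), and filled points for an adjusted p under 0.05. The 8 filled genes lie between 1.71 and 3.13, and Ccl11 and Ccl5 between 0.73 and 1.25.

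In the second group of neighbours, Ccl3 and Ccl4, the macrophage inflammatory proteins, rose in both genotypes. Ccl3 had 15.2, 39.2, 51.7 and 31.4 normalized counts in wild type without laser and from 149 to 471 (median 192) with laser. The Ceacam1-/- values of Ccl3 were 17.6, 23.8, 35.8 and 29.4 without and from 51.2 to 424 (median 163) with laser. Neither genotype had an overlap, and the antisense RNA Gm53692, which shares bases with Ccl3, had means of 14.4 and 10.8 without and 45.0 and 33.9 with laser. Ccl3 had a log2 difference of 2.76 ± 0.44 (SE, adjusted p = 0.000371, limma) in wild type and 2.37 ± 0.46 (SE, adjusted p = 0.00566) in Ceacam1-/- mice. Ccl4 had 7.03, 34.8, 99.2 and 20.8 normalized counts in wild type without laser and from 124 to 389 (median 211) with laser. Ccl4 counted 29.5, 35, 28.4 and 21.6 in Ceacam1-/- mice without and from 40.9 to 387 (median 158) with laser. Library 21 was the lowest and library 26 the highest of the wild type libraries without laser. The log2 difference of Ccl4 was 2.91 ± 0.53 (SE, adjusted p = 0.00142, limma) in wild type, and 2.31 and 3.52 without libraries 21 and 26. In Ceacam1-/- mice it was 2.44 ± 0.55 (SE, adjusted p = 0.0151, limma), and 3.11 without the retina-rich libraries.

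Ccl6 and Ccl9 are myeloid chemokines of rodents that bind Ccr1. Ccl6 had 371, 587, 408 and 1095 normalized counts in wild type without laser and from 1495 to 4396 (median 2105) with laser. The Ceacam1-/- values of Ccl6 were 259, 724, 315 and 455 without and from 843 to 2252 (median 1777) with laser. The lowest laser values of Ccl6, 843 and 902 in libraries 14 and 15, still exceeded the 724 of library 24. Ccl6 had a log2 difference of 2.08 ± 0.33 (SE, adjusted p = 0.000400, limma) in wild type, or 1.47 with array weights, and 1.89 ± 0.35 (SE, adjusted p = 0.00356) in Ceacam1-/- mice. Ccl9 had 317, 380, 229 and 394 normalized counts in wild type without laser and from 752 to 2222 (median 1371) with laser. Ccl9 counted 190, 375, 148 and 86.6 in Ceacam1-/- mice without and from 388 to 2131 (median 1106) with laser. Here library 14, at 388, was barely above library 24, at 375. The log2 difference of Ccl9 was 2.00 ± 0.40 (SE, adjusted p = 0.00375, limma) in wild type and 2.24 ± 0.42 (SE, adjusted p = 0.00460) in Ceacam1-/- mice, and 3.01 there without the retina-rich libraries.

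Ccl5, or RANTES, is made by T cells and NK cells as well as by macrophages. Its normalized counts were 21, 64.8, 76.7 and 98.1 in wild type without laser and from 73.2 to 215 (median 131) with laser. The Ceacam1-/- values of Ccl5 were 44.0, 47.0, 79.4 and 95.4 without and from 46.6 to 230 (median 167) with laser. The groups overlapped through library 16 in wild type and through retina-rich libraries 15 and 18 in Ceacam1-/- mice. Ccl5 had a log2 difference of 1.25 ± 0.41 (SE, adjusted p = 0.0767, limma) in wild type and 1.07 ± 0.43 (SE, adjusted p = 0.155) in Ceacam1-/- mice. Ccl5 passed in wild type with only the wild type libraries in the fit (adjusted p = 0.0425 from limma) and in Ceacam1-/- mice without the retina-rich libraries (1.45, adjusted p = 0.00620) or with array weights (1.70, adjusted p = 0.00272).

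The next question was whether loss of Ceacam1 went with another level of these genes, or with another response to laser. None of the 10 genes passed between the genotypes without laser, where limma called 0% of 20057 genes (307 genes, 1.53%, had an unadjusted p under 0.05, none of them among the 10). Ceacam1, the deleted gene, did not pass there either, so the lack of calls does not show that the genotypes were alike. The study's own DESeq2 fit of choroids without laser, with sex as a covariate, did call genes. The log2 differences of Ceacam1-/- from wild type mice ran from -0.89 for Ccl9, with a 95% interval from -1.87 to 0.09, to 0.35 for Ccl2, with an interval from -0.52 to 1.23 (adjusted p = 0.999 for each of the 10). With laser, none of the 10 and 0.0202% of 19757 genes passed. The log2 differences ran from -0.67 for Ccl3 to 0.36 for Ccl12, and 8 of 10 were below 0. Ccl6 had the lowest p, with a difference of -0.65 ± 0.25 (SE, unadjusted p = 0.0185, adjusted p = 0.167, limma), where 22.7% of all genes had an unadjusted p under 0.05. Directions between the genotypes with laser turned for 6 genes without the retina-rich libraries: Ccl2 was then at 0.42, Ccl3 at 0.01, Ccl4 at 0.24, Ccl5 at 0.51, Ccl9 at 0.08 and Ccl11 at 0.43. Over the alternatives other than leaving out 1 library, Ccl12 ran from 0.34 to 1.21 and Ccl7 from 0.05 to 0.76. The lowest adjusted p of Ccl12 among them was 0.0675 (limma).

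The laser response itself did not differ detectably between the genotypes for any of the 10 genes. The interaction of laser and genotype, the laser difference in Ceacam1-/- minus that in wild type mice, ran from -0.49 ± 0.58 (SE) for Ccl2 to 0.38 ± 0.71 (SE) for Ccl12 on the log2 scale. The lowest adjusted p of the 10 was 0.756, and limma called 0% of 19950 genes (1241 genes, 6.22%, had an unadjusted p under 0.05, none of the 10 among them). The intervals were wide. In the fit of all 24 libraries the 2 laser differences of Ccl7 were closest. Its interaction of 0.00 had a 95% interval from -1.30 to 1.31, and for Ccl4 the interval ran from -2.04 to 1.1. Differences in response within these bounds remain compatible with the values. The bounds are not a limit of detection, and a difference beyond them could also have failed to pass. Without the retina-rich libraries the interaction was 1.63 for Ccl12, 1.02 for Ccl9 and 0.86 for Ccl7, and none of these passed.

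Levels can be compared between genes only per length, so each value was divided by the length of the longest transcript in kb. The longest and canonical transcripts differ for Ccl2 (1096 and 813 bases) and Ccl5 (668 and 535 bases), so ranks that involve them depend on the length chosen. In wild type without laser, Ccl6 was highest, at 427 ± 232 normalized counts per kb (SD, n = 4), followed by Ccl11 at 333 ± 101 and Ccl8 at 238 ± 258, and Ccl3 was lowest at 44.3 ± 19.7. In Ceacam1-/- mice without laser, Ccl11 (311 ± 151) and Ccl6 (304 ± 144) led and Ccl3 was again lowest, at 34.3 ± 10.0 normalized counts per kb. With laser, Ccl6 led in both genotypes, at 1735 ± 643 per kb in wild type (SD, n = 9) and 1110 ± 386 in Ceacam1-/- mice (SD, n = 7), followed by Ccl8 at 953 ± 438 and 680.1 ± 305. Ccl7 had rank 3 with laser in both genotypes, from ranks 7 and 8 without it. Ccl2 moved from rank 8 to rank 4 in wild type and from rank 6 to rank 5 in Ceacam1-/- mice, while Ccl5 moved from rank 6 to rank 10 and from rank 4 to rank 9. In none of the 4 groups did neighbours in the order differ by more than the sum of their SDs, so the order between adjacent genes is not settled.

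Of the 10 CC chemokine receptor genes examined, 6 passed the filter and 3 of these rose in both genotypes, namely Ccr1, Ccr2 and Ccr7. Ccr2, the monocyte receptor of Ccl2, Ccl7 and Ccl12, had 98.7, 189, 217 and 221 normalized counts in wild type without laser and a median of 1273 with laser, and 58.0, 227, 129 and 121 against a median of 1084 in Ceacam1-/- mice. The log2 difference of Ccr2 was 2.91 ± 0.39 in wild type and 2.81 ± 0.40 in Ceacam1-/- mice (SE, adjusted p = 5.20e-05 and 0.000325, limma), with no overlap in either. Ccr1, a receptor for Ccl3, Ccl6 and Ccl9, had 23.2, 44.2, 61.2 and 47.3 normalized counts in wild type without laser and a median of 494 with it, and its log2 difference was 3.55 in wild type and 4.07 in Ceacam1-/- mice. Ccr7, which guides dendritic cells to lymph nodes, had differences of 3.21 and 2.19. Ccr9 and Ccr10, homing receptors of lymphocytes, and Ccrl2 did not pass in either genotype, with differences from -0.29 to 0.92. Ccr3, Ccr4, Ccr6 and Ccr8 were below the filter, so the receptor of Ccl11 could not be tested. None of the 4 atypical receptors passed, and the nearest was Ackr4, with 1.55 in Ceacam1-/- mice (adjusted p = 0.0914, limma).

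**Figure D3:**
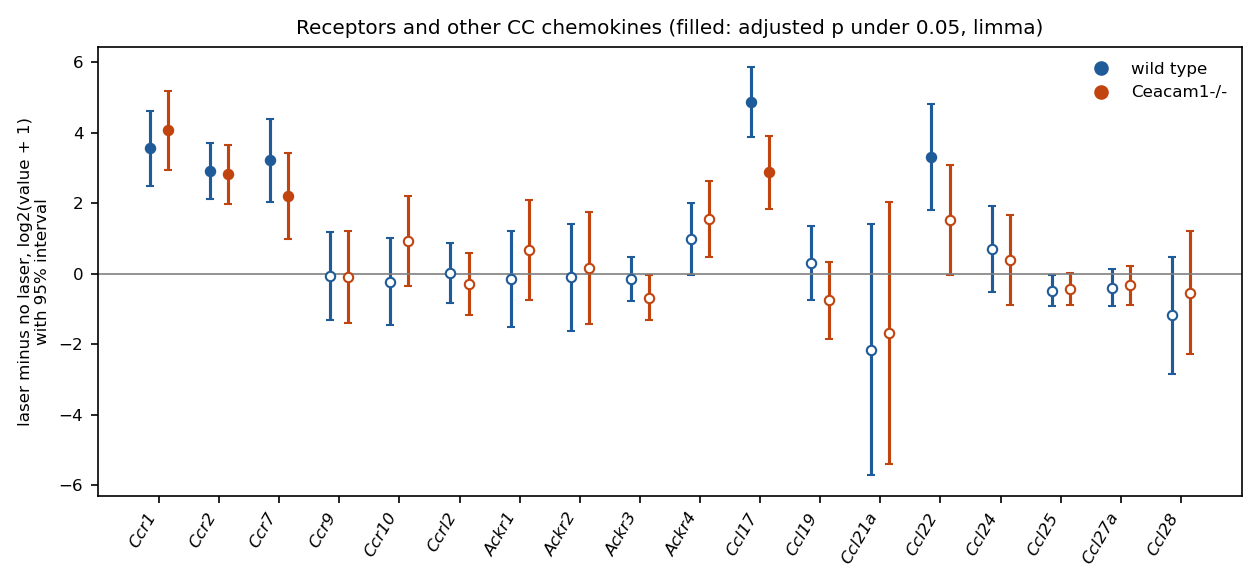
Laser minus no laser difference on the log2(value + 1) scale, with 95% intervals, for the CC chemokine receptors, atypical receptors and other CC chemokines that passed the filter, in wild type (blue) and Ceacam1-/- mice (orange). Filled points have an adjusted p under 0.05, and they are Ccr1, Ccr2, Ccr7 and Ccl17 in both genotypes and Ccl22 in wild type.

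Of 11 other CC chemokine genes, which lie outside the 10, 8 could be tested. Ccl17, a dendritic cell ligand of Ccr4, had 2.51, 3.0, 3.63 and 8.18 normalized counts in wild type without laser and a median of 134 with laser, with a log2 difference of 4.86 ± 0.48 (SE, adjusted p = 1.05e-06, limma). In Ceacam1-/- mice Ccl17 had 6.93, 13.3, 12.7 and 18.2 against a median of 92.3, and the difference was 2.87 ± 0.50 (SE, adjusted p = 0.00229). The difference of Ccl17 was thus larger than that of any of the 10 in wild type, and its interaction with genotype, of -1.99 ± 0.69 (SE), did not pass (adjusted p = 0.640, limma). Ccl22, the other ligand of Ccr4, rose in wild type, by 3.30 on the log2 scale, and its difference of 1.52 in Ceacam1-/- mice did not pass (adjusted p = 0.265, limma). The remaining 6 (Ccl19, Ccl21a, Ccl24, Ccl25, Ccl27a and Ccl28), several of which epithelium or lymph vessels make without inflammation, did not pass in either genotype, and Ccl26 was listed at 0 in all libraries. Among 14 genes of the NF-kB and interferon pathways that induce or limit chemokines, of which 12 were tested, Il1b rose in both genotypes (1.89 and 2.66) and Stat3 rose in wild type (0.59).

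Markers of the cells that make or answer these chemokines moved as follows. Of 14 monocyte and macrophage markers, 11 rose with laser in wild type libraries and 9 in Ceacam1-/- libraries, with median log2 differences of 2.24 and 1.59. Their summed normalized count had a median of 13019 without and 70642 with laser in wild type, and of 11585 and 58034 in Ceacam1-/- mice, and Lyz2, or lysozyme, was the most abundant in all groups. Ly6c2, a marker of inflammatory monocytes, had log2 differences of 2.21 (wild type) and 2.99 (Ceacam1-/-), and Cd163 and Mrc1, markers of resident macrophages, did not pass in either. These genes were picked from the 14 after their values were seen, and most of the 14 rose. Recruited and resident cells were not compared. The mean log2(value + 1) of the 10 chemokines was 8.79 ± 0.41 (SD) with laser against 6.60 ± 0.62 without in wild type, and that of the macrophage markers was 10.29 ± 0.22 against 8.23 ± 0.49. In Ceacam1-/- mice the chemokine means were 8.51 ± 0.78 and 6.45 ± 0.40 and the macrophage marker means 9.85 ± 0.84 and 8.28 ± 0.33. How far the number of macrophages accounts for the chemokine values was not tested.

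**Figure D4:**
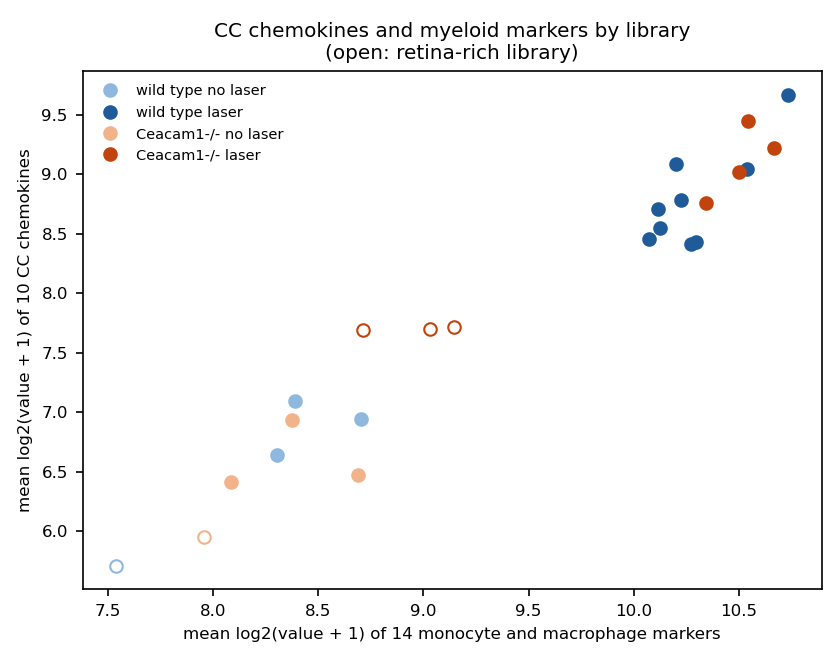
Mean log2(value + 1) of the 10 CC chemokines against that of 14 monocyte and macrophage markers, 1 point per library, coloured by group, with open points for retina-rich libraries. Libraries with laser lie above those without on both axes, and the 3 open Ceacam1-/- laser points lie between the 2 clouds.

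Of 10 neutrophil markers, 5 could be tested, of which S100a8 rose in both genotypes (2.37 and 3.25) and Csf3r in wild type (1.85). Their summed normalized count had a median of 218 without and 478 with laser in wild type libraries, and of 333 and 749 in Ceacam1-/- libraries. Camp, a granule peptide gene, was the most abundant without laser, with means of 89.8 in wild type and 118 in Ceacam1-/- libraries, and neither Camp nor Cxcr2 passed in a laser comparison. Csf3r was the most abundant in wild type and S100a8 in Ceacam1-/- libraries with laser. Of the defining genes, Ly6g and Elane were listed at 0 in every library without laser, Ngp in every wild type library without laser and Mpo in every Ceacam1-/- laser library. Of 12 T and NK cell markers, 9 of them tested, Cd4 was the most abundant. Only Trbc2, a constant part of the T cell receptor, rose, and it did so in both genotypes (2.27 and 2.08). The median log2 difference of the 9 tested markers was 0.17 in wild type and 0.72 in Ceacam1-/- mice. None of 8 tested eosinophil and mast cell markers passed, Kit was the most abundant, and the eosinophil peroxidase gene Epx was listed at 0 in every wild type library without laser and every Ceacam1-/- laser library, as was Prg2, an eosinophil granule protein gene, in the latter. Of 8 fibroblast markers, 3 rose in wild type (Lum, Fn1 and Postn) and 2 in Ceacam1-/- mice (Lum and Fn1). No endothelial, RPE, photoreceptor, glial, lens, muscle or red blood cell marker passed in either laser comparison. This does not show equal tissue content. In wild type and Ceacam1-/- mice the median log2 differences were 2.32 and 2.53 for lens and -1.48 and 2.23 for photoreceptor markers. For endothelial markers they were smaller, at 0.40 and -0.25.

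Within groups, the 10 genes varied together to a degree that depended on the retina-rich libraries. The correlation of the 45 pairs, over the residuals of 24 libraries from their group means, had a median Pearson r of 0.573, and a median of 0.290 over the 19 libraries that were not retina-rich. These are descriptions, since all genes share libraries and scaling. Pairs within the first group of neighbours had a median of 0.555, pairs within the second one of 0.481 and pairs between them one of 0.622. Without the retina-rich libraries these medians were 0.318, 0.141 and 0.290, in another order. The closest pair was Ccl2 and Ccl7, at 0.899, or 0.893 without the retina-rich libraries. For each of the 8 genes that rose, the 3 genes most like it were taken from all genes tested. Ccl2 was most like Ccl7, the lipopolysaccharide coreceptor gene Cd14 (0.864) and Coro1a (0.833), and Ccl3 was most like Slc15a3, Coro1a and Srgn (0.885, 0.883 and 0.857). Ccl4 was most like Cd40, Traf1 and Irf8 (0.877, 0.861 and 0.830), and Ccl12 like the Fc receptor gene Fcgr1 (0.907), Cd40 (0.832) and Adap2os (0.825), of which the last 2 were at 0.518 and 0.355 without the retina-rich libraries. Ccl8 was most like Folr2, a gene of resident macrophages (0.862), Dpt (0.800) and Ccl6 (0.760), and Ccl6 like Lrrc17, Ccl24 and Dpt (0.841, 0.833 and 0.828), of which Dpt is a matrix gene of fibroblasts. Ccl7 was most like Ccl2, Tmem97 and Creb3 (0.899, 0.795 and 0.789), and Ccl9 like Glipr2, Gnpnat1 and Pigk (0.898, 0.856 and 0.849).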

How the data were processed

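RNA of mouse choroid was sequenced by the authors from SMART-Seq libraries, pseudo-aligned to GRCm39 (annotation vM35) with salmon 1.10.3, imported with tximport into DESeq2 1.44.0 and deposited as normalized counts (signal values). Reads could not be recovered, since only 35.8% to 77.2% of the low values, those below 5 reads, were whole multiples of 1 read within 5%, so count models were not used. Tests used limma 3.58.1 (R 4.3.3) with a mean-variance trend on log2(value + 1), for genes with a mean of at least 10, with Benjamini-Hochberg adjustment over all genes tested and a threshold of 0.05. Laser and the interaction came from 1 fit of 24 libraries, genotype from the 8 without or the 16 with laser. Fold changes of low genes are understated on this scale. The method was tested on simulated data. Positions came from GENCODE vM39 (99.1% of identifiers matched), promoters from the GRCm39 genome and shared sequence from blastn 2.17.0. Python 3.11.15 was used for tables and figures.

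The members and gene lists were chosen with earlier results of these data known. Named were Ceacam1, all members, genes past the threshold in the lists of receptors, other chemokines and inducers, the most abundant gene and genes at 0 of each marker list, and the 3 genes most like each member that rose. Other genes of the lists were named after their values were seen. Alternatives were a pseudocount of 10, no filter, upper-quartile scaling, array weights, a Y-linked covariate (sex is not in the labels), fits of other sets of libraries, and each library left out in turn. The values of 2 genes of these lists are not reported here.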

Additional observations from a re-analysis of the deposited data

Results flagged for a closer look

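For each member and Ceacam1 the spread within the 4 groups was examined, 44 groups of values in all, and in 7 of them 1 library stood far from the others. The rule would flag about 1 in 20 groups if values were normally distributed and groups independent. All 7 flags were high values and the groups share libraries, so 7 of 44 cannot be read as an excess over chance. Library 1 of the wild type laser group was highest in Ccl2 (1702 normalized counts), Ccl7 (1237) and Ccl3 (471). Library 6 of the Ceacam1-/- laser group was highest in Ccl3 (424). Library 27 of the wild type group without laser was highest in Ccl8 (321). For Ceacam1 itself, library 19 of the wild type laser group had 8367 normalized counts and library 28 of the Ceacam1-/- group without laser had 1171.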

How the results depend on the processing

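The laser differences of the 10 genes kept their direction under all alternatives run, and upper-quartile scaling and the Y-linked covariate changed none of their calls. Ccl12 was lost in wild type with a pseudocount of 10 (adjusted p = 0.0503, limma) and without the filter (0.0717), and over the 13 fits that left out 1 library its adjusted p reached 0.253. Genes called for laser numbered 1053 (wild type) and 742 (Ceacam1-/-). With array weights they were 6505 and 3551, with only the compared libraries 2274 and 38, and without the retina-rich libraries 1645 and 2923. Without the filter 437 genes were called in Ceacam1-/- mice. Only 2 members were called there in a fit of the compared libraries, which has fewer samples, when Ccl3, Ccl4, Ccl6, Ccl8, Ccl9 and Ccl12 had adjusted p from 0.0647 to 0.189 (limma). Array weights gave 1 gene for genotype without laser and 297 with laser, where the fit of all 24 libraries gave 9 and the fit without the retina-rich libraries 2. The causes of these shifts were not tested.

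Leaving out 1 library at a time, genes called for laser ranged from 479 (without library 21) to 1162 in wild type and from 148 (without library 25) to 2488 (without library 23) in Ceacam1-/- mice, where 5 to 8 members were called. Genotype gave 0 to 1 genes without laser and 4 to 61 with laser.

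No member was called for genotype or the interaction under any alternative, and most directions turned in at least 1 of the fits, the exceptions being Ccl2, Ccl3, Ccl6 and Ccl9 for genotype without laser and Ccl6 and Ccl12 for genotype with laser. On the log2 scale, the interaction with array weights was 0.0313 for Ccl2, 0.19 for Ccl3, 0.99 for Ccl5, 0.26 for Ccl6, 0.77 for Ccl8 and 0.27 for Ccl11. Without the retina-rich libraries it was 0.11 for Ccl2, 0.44 for Ccl3, 0.81 for Ccl4, 0.66 for Ccl5, 0.20 for Ccl6 and 0.38 for Ccl11. In that fit the interaction kept its direction but was larger for Ccl7 (0.86), Ccl9 (1.02) and Ccl12 (1.63). The Y-linked covariate gave -0.0348 for Ccl7 and 0.00889 for Ccl11, and upper-quartile scaling -0.0245 for Ccl7. For genotype without laser, array weights gave -0.45 for Ccl5, -0.0187 for Ccl7, 0.00564 for Ccl11 and 0.11 for Ccl12, and leaving out the retina-rich libraries gave -0.57 for Ccl4, -0.15 for Ccl5, -0.18 for Ccl7 and 0.0538 for Ccl11. Ccl4 was at -0.00733 with the Y-linked covariate and -0.0631 with a pseudocount of 10, and Ccl12 at 0.00607 with upper-quartile scaling. For genotype with laser, array weights gave 0.49 for Ccl2, 0.38 for Ccl4, 0.54 for Ccl5, 0.11 for Ccl8 and 0.30 for Ccl11, the Y-linked covariate 0.13 for Ccl2 and 0.0768 for Ccl5, and leaving out the retina-rich libraries 0.42 for Ccl2, 0.00633 for Ccl3, 0.24 for Ccl4, 0.51 for Ccl5, 0.0775 for Ccl9 and 0.43 for Ccl11.

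With 1 library left out, the interaction ranged from -1.08 to 0.13 for Ccl4, -0.43 to 0.29 for Ccl5, -0.51 to 0.0881 for Ccl6, -0.25 to 0.31 for Ccl7, -0.84 to 0.15 for Ccl8, -0.10 to 0.60 for Ccl9, -0.40 to 0.26 for Ccl11 and -0.10 to 0.93 for Ccl12. Genotype without laser ranged from -0.55 to 0.66 for Ccl4, -0.32 to 0.41 for Ccl5, -0.26 to 0.30 for Ccl7, -0.65 to 0.34 for Ccl8, -0.48 to 0.19 for Ccl11 and -0.57 to 0.46 for Ccl12. Genotype with laser ranged from -0.30 to 0.0711 for Ccl2, -0.16 to 0.22 for Ccl5, -0.17 to 0.29 for Ccl7 and -0.38 to 0.0225 for Ccl11. No paired analysis was possible because the labels give no mouse or litter that links libraries of different groups. Depth in whole reads could not be recovered, so no counting interval was computed.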
